A study of Homo sapiens with 12 samples.

Results

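The mitochondrial respiratory chain subunits encoded in the nucleus were followed through knockdown of MARK2 in 3 human lung cancer cell lines. MARK2 is a serine/threonine kinase of the microtubule affinity-regulating family. The genes form a list of 41 named subunits of complexes I to IV, found on the arrays by gene symbol. Of these, 39 were read by probe sets with their gene symbol and passed the filter on dim genes, out of 16205 genes that passed it in all. They were 21 subunits of complex I, 3 of complex II, 6 of complex III and 9 of complex IV, and SDHB and UQCRFS1 are not analysed here.

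The groups were H1993 with a lentiviral short hairpin RNA against MARK2 (H1993 KD) and H1993 with the empty vector pLKO (H1993 PLKO), and likewise H1693 KD and H1693 PLKO, and H1650 KD and H1650 PLKO. Every group was thus transduced with a lentivirus, and the submitters chose these lines as ones that overexpress MARK2. Each group had 2 Affymetrix PrimeView arrays, which are biological replicates per the labels, and 12 arrays in all. The hairpin's sequence, the number of hairpins and the time after transduction are not known from the labels. All values below are log2 signals (RMA) of the brightest probe set of each gene. A change is the KD mean minus the PLKO mean, so a change of 1 is a 2-fold difference in signal. It counts as past the threshold where limma's adjusted p over all genes tested was below 0.05.

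Complexes I to IV sit in the inner mitochondrial membrane. Complexes I and II pass electrons from NADH and succinate to ubiquinone, complex III passes them on to cytochrome c, and complex IV hands them to oxygen. Complexes I, III and IV also pump protons, and complex V, the ATP synthase, uses the proton gradient to make ATP. Complexes I, III and IV combine subunits from nuclear genes with a core made from mitochondrial DNA, whereas complex II is wholly nuclear. The mitochondrially encoded subunits are not analysed here.

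MARK2 itself had 6.76 and 6.77 in H1993 KD arrays, against 9.17 and 9.06 in H1993 PLKO arrays, which left 19.6% of the control signal (change -2.35, SE 0.16, adjusted p = 6.47e-06). In H1693 it had 6.62 and 6.57 in KD arrays and 7.76 and 7.97 in PLKO arrays, or 41.6% of control (change -1.27, adjusted p = 0.000258). In H1650 the KD arrays had 5.92 and 5.37 and the PLKO arrays 6.07 and 5.80, which overlap, and the change of -0.29 did not pass the threshold (adjusted p = 0.156). These signals lie near the log2 of 5 used to filter dim genes. Over the alternative settings the change ran from -0.56 to -0.02. With quantile normalization it was -0.44 and passed (limma adjusted p = 0.029). The H1650 arrays also stood apart in RNA integrity. The gap between the 3' and 5' probe sets of GAPDH was 6.82 ± 0.07 in H1650 KD and 2.68 ± 0.56 in H1650 PLKO, and between -0.10 and -0.00 in the 4 group means of the other lines (SD, n = 2 arrays a group). The hairpin and the RNA integrity therefore cannot be told apart in H1650, in every result of that line below.

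Markers were read as a check of the labelled cell type. The epithelial genes EPCAM and KRT18 were bright in every group, with group means of 12.61 to 13.35 for EPCAM and 13.91 to 15.01 for KRT18. KRT8 had 7.19 in H1650 KD and 11.66 in H1650 PLKO, and KRT7 was dim in H1693 (6.38 in KD and 6.70 in PLKO). Marker counts past the threshold are read beside the shares of all genes tested. These were 18.9% higher and 14.5% lower in H1993, 17.1% and 15.9% in H1693, and 36.7% and 16.7% in H1650. Of the 7 epithelial markers, 3 rose and 0 fell in H1993, 2 rose and 1 fell in H1693, and 1 rose and 5 fell in H1650. The log2 of their summed signal was 16.95 and 16.99 in H1993 KD against 16.82 on both H1993 PLKO arrays. It was 16.42 to 16.46 in H1693 KD against 16.31 to 16.32 in H1693 PLKO, and 16.18 to 16.20 in H1650 KD against 16.52 on both H1650 PLKO arrays. Of the leukocyte markers PTPRC was below the filter on dim genes, and CD3E, CD14 and ITGAM were tested. All 3 had changes above 0 in H1993, none past the threshold, and CD14 fell in H1650. The log2 of the summed leukocyte signal was 8.98 and 9.16 in H1993 KD against 8.59 and 8.71 in H1993 PLKO, which did not overlap. None of 4 endothelial markers passed the threshold in any line. Of 4 fibroblast markers tested, 2 were higher in H1993 KD, 3 in H1693 KD and 1 in H1650 KD. The log2 of the summed fibroblast signal was 9.09 and 9.23 in H1993 KD against 8.51 and 8.67 in H1993 PLKO, 12.82 and 12.87 in H1693 KD against 12.05 and 12.08 in H1693 PLKO, and 11.26 and 11.34 in H1650 KD against 10.83 and 10.91 in H1650 PLKO. The part of these markers in the subunits' changes was not tested.

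In H1993, most of the 39 listed subunits had lower signal after MARK2 knockdown, by small amounts. The change was below 0 for 35 of the 39 (89.7%), against 47% of all genes tested. In 31 subunits both KD arrays lay below both PLKO arrays, in 3 both lay above, and 5 overlapped, whereas 29% of all genes had both KD arrays below. Past the threshold, 9 subunits fell (23.1%, against 14.5% of all genes) and 1 rose (2.56%, against 18.9% of all genes), 10 in all where 33.4% of all genes changed. The median change of the subunits was -0.12, and the median of all genes tested was 0.02. In these bulk cultures, fewer cells of a kind and less RNA per cell cannot be told apart.

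Centring subtracted each array's median over the 16205 genes tested. It moved the H1993 values further down, because these medians averaged 8.46 in KD and 8.39 in PLKO. Over all probe sets the medians were closer, at 7.28 on both H1993 KD arrays and 7.25 and 7.26 on PLKO arrays. Centring on those was not done. On the centred scale the subunits' median change was -0.19, beside -0.05 for all genes tested, with 16 subunits lower and 0 higher. Over all genes on that scale, 3180 were lower and 2452 higher, where the deposited values gave 2354 lower and 3064 higher. Leaving out any of the 4 H1993 arrays left 4 or 5 subunits lower instead of 9.

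**Figure D1:**
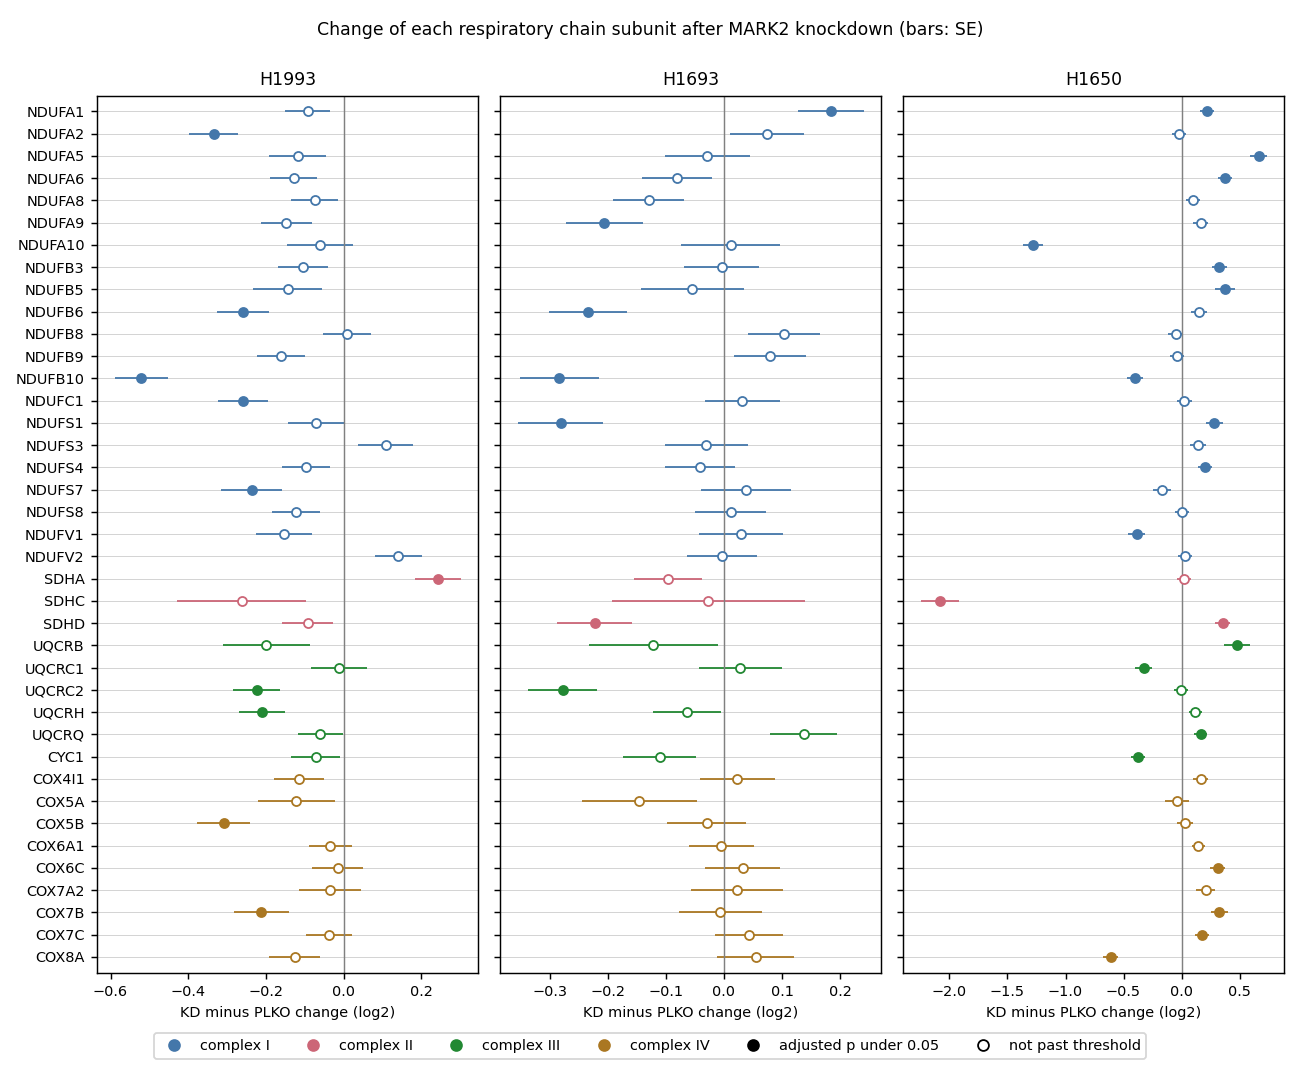
Change of each of the 39 subunits (KD minus PLKO, log2) in H1993, H1693 and H1650, with bars of 1 SE from the fit, filled points for an adjusted p under 0.05 and colours for complexes I to IV. The x axes of the panels differ in scale. In H1993 35 points lie left of 0, in H1693 23 and in H1650 13.

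All 4 complexes had medians below 0 in H1993. That of complex II is the value of SDHD alone, and its 3 subunits ran from -0.26 to 0.24. The median change was -0.12 for complex I, -0.09 for complex II, -0.14 for complex III and -0.12 for complex IV, and with centred arrays -0.19, -0.16, -0.21 and -0.19 in the same order. For complex I the median signal of the 21 subunits was 12.41 and 12.49 on the KD arrays, against 12.69 and 12.83 on the PLKO arrays. The complex IV median was 13.73 and 13.67 on KD arrays and 13.95 and 13.87 on PLKO arrays. These are the values of COX7B, the middle subunit of complex IV, so they add nothing to that gene's own result. In complexes I and IV these median signals lie further apart between KD and PLKO than the median change of -0.12. In complex III both KD arrays (13.43 and 13.48) were likewise below both PLKO arrays (13.53 and 13.54). With the probe sets used, every measured subunit of complexes III and IV had a change below 0 in H1993. So did 18 of 21 in complex I and 2 of 3 in complex II. In complex III, other probe sets of UQCRH and UQCRQ went the other way. Their ranges were -0.21 to 0.18 for UQCRH and -0.06 to 0.27 for UQCRQ.

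**Figure D2:**
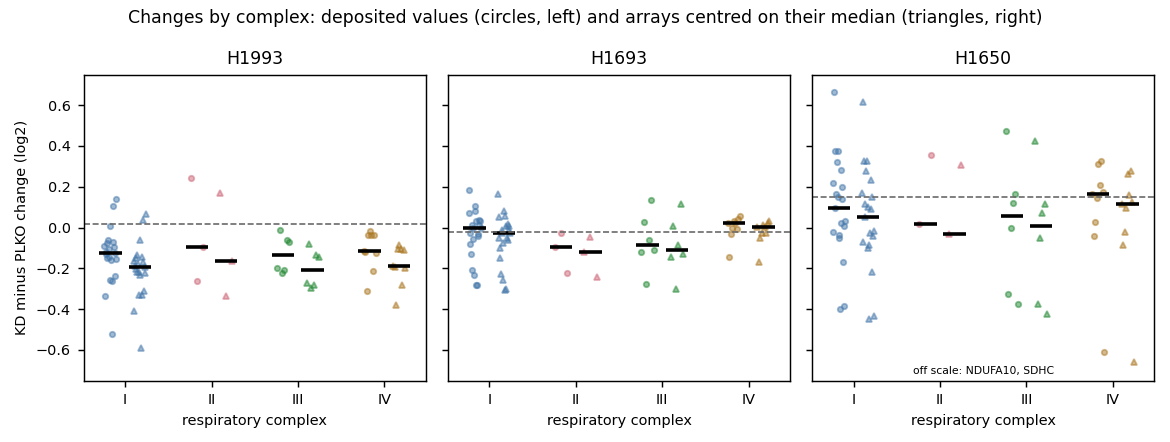
Changes of the subunits by complex in each line (y axis, KD minus PLKO, log2) from the deposited values (circles) and from arrays centred on their median (triangles), with black bars at the complex medians and a dashed line at the median of all genes tested on the deposited values. Centring used each array's median over the genes tested. NDUFA10 and SDHC in H1650 lie off the scale. All 4 complex medians are below the dashed line in H1993, whereas complexes I and IV are slightly above it in H1693.

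Complex I gave 5 of the falls in H1993 and no rise. NDUFB10, an accessory subunit of the membrane arm, had 12.25 and 12.23 in KD arrays and 12.68 and 12.83 in PLKO arrays, a fall to 69.7% of control (change -0.52, SE 0.07, adjusted p = 0.000304). NDUFA2, an accessory subunit of the peripheral arm, had 12.11 and 12.18 in KD arrays against 12.45 and 12.51 in PLKO arrays (change -0.34, SE 0.06, adjusted p = 0.0027). In each of these genes the KD arrays were lower and separate from the controls by more than the spread within either group. NDUFC1, another membrane-arm accessory subunit, had 12.94 and 12.88 in KD arrays and 13.22 and 13.13 in PLKO arrays (change -0.26, adjusted p = 0.0112). NDUFB6, of the membrane arm as well, had 13.03 and 12.91 in KD arrays and 13.22 and 13.24 in PLKO arrays (change -0.26, adjusted p = 0.0137). The fifth was NDUFS7, which carries an iron-sulfur cluster near the ubiquinone site, at 11.51 and 11.62 in KD arrays and 11.80 on both PLKO arrays (change -0.24, adjusted p = 0.0401). This call was lost in 12 of 21 alternative settings, and the 4 NDUFS7 probe sets ran from -0.32 to 0.01. The other 16 subunits of complex I, which include NDUFV1, the NADH-binding flavoprotein subunit, did not pass the threshold in H1993.

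The rise in H1993 was in complex II. SDHA, the flavoprotein that oxidises succinate, had 13.65 and 13.62 in H1993 KD arrays against 13.40 and 13.38 in PLKO arrays, a rise to 118% of control (change 0.24, SE 0.06, adjusted p = 0.00986). The groups did not overlap, but with centred arrays the change was 0.17 and no longer passed (adjusted p = 0.0725). The 3 SDHA probe sets also ran from -0.23 to 0.34, and their mean gave 0.12 (adjusted p = 0.205). Without H1993 KD replicate 1 or PLKO replicate 2 the adjusted p was 0.0559 or 0.0528. SDHC, which anchors complex II in the membrane and holds part of its heme, had 12.32 and 12.54 in KD arrays and 12.59 and 12.79 in PLKO arrays, a change of -0.26 that did not pass the threshold (adjusted p = 0.28).

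Complexes III and IV gave 2 falls each in H1993. UQCRC2, a core protein of complex III, had 12.58 and 12.55 in KD arrays and 12.77 and 12.81 in PLKO arrays (change -0.22, adjusted p = 0.0161). UQCRH, the hinge protein that helps cytochrome c dock, had 13.46 and 13.52 in KD arrays and 13.70 and 13.71 in PLKO arrays (change -0.21, adjusted p = 0.0201). Its 2 probe sets ran from -0.21 to 0.18 and their mean gave -0.01 (adjusted p = 0.897), so the direction of UQCRH depends on the probe set. COX5B, a zinc-binding subunit of complex IV, had 13.10 and 13.16 in KD arrays against 13.43 and 13.45 in PLKO arrays, or 80.7% of control (change -0.31, SE 0.07, adjusted p = 0.00597). COX7B, a small subunit needed for complex IV assembly, had 13.73 and 13.67 in KD arrays and 13.95 and 13.87 in PLKO arrays (change -0.21, adjusted p = 0.0447). With the probe sets used, all 4 had both KD arrays below both PLKO arrays. Of the 10 calls in H1993, those of NDUFB10, NDUFA2 and COX5B passed under every alternative setting tried. The other 7 calls were lost in some of the 21 settings, from 3 for NDUFC1 to 14 for COX7B, whose adjusted p ran up to 0.207. Without H1993 KD replicate 2 the adjusted p was 0.071 for NDUFC1, 0.104 for NDUFB6 and 0.0812 for UQCRC2.

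In H1693 the subunits as a group stayed close to all other genes. Their median change was -0.01 (centred -0.03), beside -0.02 (centred -0.04) for all genes tested. Below 0 were 23 of 39 (59%), against 53.6% of all genes. Both KD arrays lay below both PLKO arrays in 14 subunits (35.9%, against 36.1% of all genes) and above them in 10 (25.6%, against 32.9%), and 15 overlapped. Past the threshold, 6 subunits fell (15.4%, against 15.9% of all genes) and 1 rose (2.56%, against 17.1%), 7 in all where 33% of all genes changed. The number of falls was thus near the background, and it was 1 without H1693 KD replicate 1 or PLKO replicate 1, 2 without KD replicate 2 and 3 without PLKO replicate 2.

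By complex, the H1693 medians were -0.00 for complex I, -0.10 for complex II, -0.09 for complex III and 0.02 for complex IV, and with centred arrays -0.03, -0.12, -0.11 and 0.00. None of the 9 complex IV subunits passed the threshold. Their largest change was that of COX5A, a subunit on the matrix side, at 13.42 and 13.41 in KD arrays against 13.59 and 13.54 in PLKO arrays (change -0.15, adjusted p = 0.317).

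The falls in H1693 came from complexes I, II and III. UQCRC2 had 12.68 and 12.66 in KD arrays against 12.96 and 12.94 in PLKO arrays, or 82.5% of control (change -0.28, SE 0.06, adjusted p = 0.00551). This was the only H1693 call that passed under every alternative tried. NDUFB10 had 11.24 and 11.29 in KD arrays and 11.58 and 11.53 in PLKO arrays (change -0.28, adjusted p = 0.01), and its adjusted p was 0.0688 without KD replicate 1 and 0.0689 without PLKO replicate 1. NDUFS1, the largest iron-sulfur subunit of the peripheral arm, had 10.94 and 10.92 in KD arrays and 11.25 and 11.18 in PLKO arrays (change -0.28, adjusted p = 0.015). Its 5 probe sets ran from -0.28 to 0.23, so the direction depends on the probe set.

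The smaller falls in H1693 were those of NDUFB6, SDHD and NDUFA9. NDUFB6 had 12.23 and 12.25 in KD arrays and 12.46 and 12.49 in PLKO arrays (change -0.23, adjusted p = 0.0229). SDHD, the other membrane anchor of complex II, had 12.02 and 11.97 in KD arrays and 12.22 on both PLKO arrays (change -0.22, adjusted p = 0.0252). NDUFA9, which sits near the ubiquinone site of complex I, had 11.65 and 11.72 in KD arrays and 11.90 and 11.89 in PLKO arrays (change -0.21, adjusted p = 0.0373). The single rise was NDUFA1, a small membrane-arm subunit, at 13.21 on both KD arrays against 13.03 and 13.02 on PLKO arrays (change 0.18, SE 0.06, adjusted p = 0.033). It did not pass with centred arrays (adjusted p = 0.0541) or when any H1693 array was left out.

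**Figure D3:**
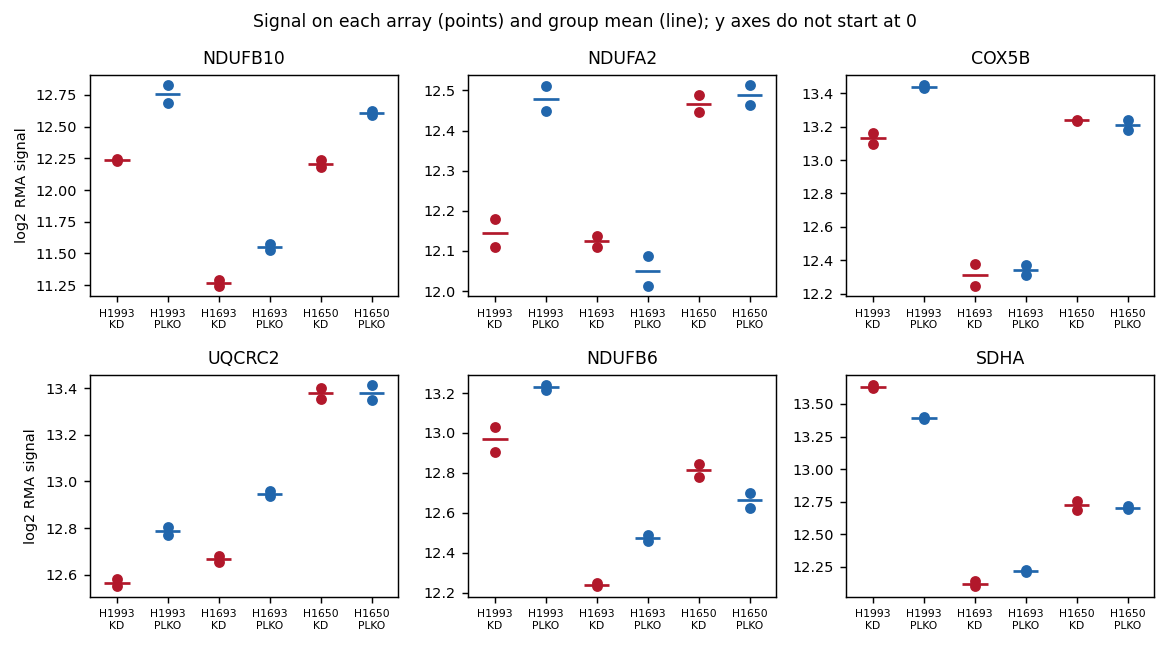
Log2 RMA signal on each array (points) and group mean (line) of 6 subunits, KD in red left of PLKO in blue for H1993, H1693 and H1650, on y axes that do not start at 0. NDUFB10 is lower in KD arrays of all 3 lines, UQCRC2 and NDUFB6 in H1993 and H1693, NDUFA2 and COX5B in H1993, and SDHA is higher in KD arrays of H1993.

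The falls shared by H1993 and H1693 were NDUFB10, NDUFB6 and UQCRC2, which are 33.3% of the 9 falls in H1993 and 50% of the 6 in H1693. Shared calls were not counted over all genes, for 2 lines or for 3, so they are not read as particular to the subunits. Changes in H1993 and H1693 had the same sign in 21 of 39 subunits, against 61.2% of all genes tested. The lines have separate controls. NDUFB10 alone passed the threshold in all 3 lines, and lower in each. Its changes were not shown to differ between lines (F test adjusted p = 0.145). NDUFB10 was read by 1 probe set. The 250 bases before the start of these 3 genes are shown because they fell in both lines, and those of SDHA because it rose in H1993. They come from RefSeq on GRCh38.p14 and are written 5′ to 3′ along the gene's strand, with capitals for matches to the NRF1 motif, which is GCGCA, then any base, then GCGC. NRF1 is nuclear respiratory factor 1, a transcription factor known for driving many respiratory genes.
NDUFB10, chr16:1959288-1959537, plus strand: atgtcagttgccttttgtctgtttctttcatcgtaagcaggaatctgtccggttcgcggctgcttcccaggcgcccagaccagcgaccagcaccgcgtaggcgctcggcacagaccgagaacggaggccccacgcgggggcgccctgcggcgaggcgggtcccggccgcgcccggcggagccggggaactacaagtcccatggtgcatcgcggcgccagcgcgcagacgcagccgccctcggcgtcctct
NDUFB6, chr9:32573160-32573409, minus strand: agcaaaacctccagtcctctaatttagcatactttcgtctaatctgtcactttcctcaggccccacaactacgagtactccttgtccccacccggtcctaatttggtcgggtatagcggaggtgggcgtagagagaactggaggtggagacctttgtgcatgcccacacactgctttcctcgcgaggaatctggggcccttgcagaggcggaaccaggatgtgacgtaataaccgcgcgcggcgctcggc
UQCRC2, chr16:21953111-21953360, plus strand: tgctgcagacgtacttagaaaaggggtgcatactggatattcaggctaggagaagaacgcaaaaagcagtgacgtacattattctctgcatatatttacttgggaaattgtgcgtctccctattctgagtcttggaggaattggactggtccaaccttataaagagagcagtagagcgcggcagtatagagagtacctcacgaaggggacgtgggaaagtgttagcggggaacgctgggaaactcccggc
SDHA, chr5:218070-218319, plus strand: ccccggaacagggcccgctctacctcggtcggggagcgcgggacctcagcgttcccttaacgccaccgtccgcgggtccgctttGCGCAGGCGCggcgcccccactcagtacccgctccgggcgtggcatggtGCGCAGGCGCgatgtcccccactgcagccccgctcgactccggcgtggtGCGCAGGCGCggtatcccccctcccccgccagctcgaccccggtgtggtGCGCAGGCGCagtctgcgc

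The SDHA sequence held 4 NRF1 matches, and the other 3 sequences held no match to it, to the ETS-family motif CCGGAAG (the site of GABP, a further activator of respiratory genes) or to the YY1 motif AAGATGGC. Motifs were searched on both strands in the 250 bases before the start, and no 2 of the printed matches overlap. Among the 33 subunits with a listed promoter, 4 held the NRF1 motif (12.1%, against 5.53% of 27305 promoters), namely NDUFA9, SDHA, SDHD and UQCRC1. The ETS motif was found in 9 of 33 (27.3%, against 8.82%) and the YY1 motif in 0 of 33 (against 1.37%). A match is a description of the letters, not a site of binding.

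In H1650 the subunits split, with larger changes in both directions. Past the threshold, 20 subunits changed, against 53.4% of all genes tested. Of these, 13 rose (33.3% of the subunits, against 36.7% of all genes) and 7 fell (17.9%, against 16.7%). The change was below 0 for 13 subunits (33.3%), against 32.4% of all genes. Both KD arrays lay above both PLKO arrays in 22 (56.4%, against 51.1% of all genes) and below them in 8 (20.5%, against 22.4%), and 9 overlapped. The subunits' median change was 0.12 (centred 0.07), below the 0.15 (centred 0.10) of all genes. These shares were near the background, so the counts are not a result about the subunits. Without H1650 PLKO replicate 1, 8 subunits rose. The GAPDH gap on the single arrays was 6.87 and 6.77 in KD and 2.28 and 3.07 in PLKO, and its part in these changes was not tested.

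Medians by complex in H1650 were 0.10 for complex I, 0.02 for complex II, 0.06 for complex III and 0.16 for complex IV, and with centred arrays 0.05, -0.03, 0.01 and 0.12. The complex II median is the value of SDHA, and the mean of all probe sets gave -1.03 for that complex. In complex III the median signal went the other way, with 13.41 and 13.51 on KD arrays against 13.71 and 13.70 on PLKO arrays. No direction is therefore given for complex III. Complex I gave 7 rises and 3 falls, complex II 1 and 1, complex III 2 and 2, and complex IV 3 and 1. Each complex thus held both rises and falls in this line, where 36.7% of all genes tested rose and 16.7% fell. These counts are therefore not read as a result about the complexes. The centred values depend on the genes used for the median. Over the genes tested, array medians averaged 8.75 in H1650 KD and 8.70 in H1650 PLKO. Over all probe sets they were lower in KD (7.128 and 7.135) than in PLKO (7.206 and 7.192).

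Among the rises, NDUFA5, an accessory subunit of the peripheral arm, had 10.94 and 10.98 in H1650 KD arrays and 10.25 and 10.35 in PLKO arrays, or 158% of control (change 0.66, SE 0.07, adjusted p = 4.93e-05). UQCRB, a ubiquinone-binding subunit of complex III, had 10.19 and 10.11 in KD arrays against 9.50 and 9.86 in PLKO arrays (change 0.47, SE 0.11, adjusted p = 0.00505). NDUFB5 and NDUFA6 came next. NDUFB5, of the membrane arm, had 12.32 and 12.26 in KD arrays and 11.84 and 11.996 in PLKO arrays (change 0.37, adjusted p = 0.0054). NDUFA6, which binds the mitochondrial acyl carrier protein on the peripheral arm, had 13.38 and 13.42 in KD arrays and 12.99 and 13.07 in PLKO arrays (change 0.37, adjusted p = 0.000559). In all 4 genes the KD arrays were higher without overlap. COX7B, which fell in H1993, rose here, with 14.04 and 13.99 in KD arrays and 13.67 and 13.70 in PLKO arrays (change 0.33, adjusted p = 0.00335).

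The falls in H1650 included 2 of over 1 log2 unit, which no subunit reached in the other lines. SDHC had 8.80 and 9.05 in KD arrays and 11.28 and 10.73 in PLKO arrays, or 23.6% of control (change -2.08, SE 0.17, adjusted p = 6.7e-06). NDUFA10, an accessory subunit of the membrane arm, had 10.01 and 10.21 in KD arrays and 11.45 and 11.33 in PLKO arrays, or 41.2% (change -1.28, SE 0.09, adjusted p = 2.2e-06). The KD and PLKO arrays did not overlap in either gene. COX8A, a small subunit of complex IV, had 13.53 and 13.68 in KD arrays and 14.25 and 14.19 in PLKO arrays (change -0.61, SE 0.07, adjusted p = 4.67e-05). NDUFB10 had 12.18 and 12.23 in KD arrays and 12.59 and 12.63 in PLKO arrays (change -0.40, adjusted p = 0.00079). NDUFV1 (change -0.39), CYC1, the cytochrome c1 of complex III (change -0.38), and UQCRC1, its other core protein (change -0.33), fell as well. Of the 20 calls in H1650, 13 passed under every alternative tried, those of SDHC, NDUFA10, COX8A and NDUFA5 among them.

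Several subunits gave different answers from different probe sets. Of the 39, 25 had several probe sets with a mean of at least 5. Their probe sets had the same sign in 19 subunits in H1993, 14 in H1693 and 17 in H1650. The range of change between probe sets of a gene had a median of 0.13 in H1993, 0.11 in H1693 and 0.26 in H1650, and its largest value was 0.57, 0.79 and 3.99. In H1650, 4 of the 5 SDHC probe sets gave changes of -2.08 to -1.54, while the fifth gave 0.25. UQCRC1 ran from -4.32 to -0.33 and NDUFA10 from -1.87 to -0.34, in each case all below 0. SDHD was called higher in H1650 with the brightest probe set, at 12.06 and 12.02 in KD arrays and 11.64 and 11.73 in PLKO arrays (change 0.35, adjusted p = 0.00123), yet its 5 probe sets ran from -2.38 to 0.35. Their mean gave a change of -1.03 (adjusted p = 4.47e-07), so no direction can be given for SDHD in H1650. Of the chosen probe sets, 10 carry the suffix s_at and 7 the suffix x_at, which mark probes that can also match other transcripts, those of SDHC and SDHD among them. Positions of the probe sets along the transcripts were not used here.

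**Figure D4:**
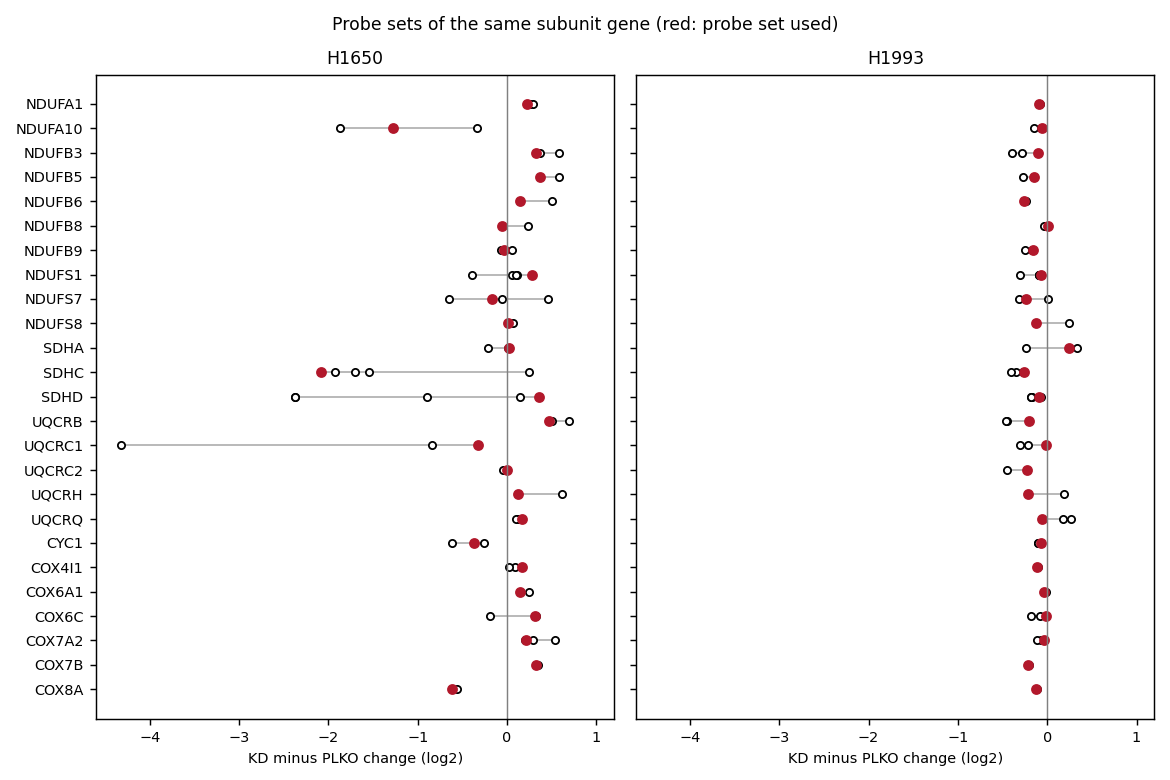
Changes (KD minus PLKO, log2) of every probe set with a mean of at least 5 for the 25 subunits that have several, in H1650 and H1993 on the same x axis, with the probe set used in red. In H1993 the probe sets of a gene lie within 0.57 of each other, whereas in H1650 those of UQCRC1 lie up to 3.99 apart.

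For many subunits the change differed between lines. It did so for many of all genes tested too, so this is not read as particular to the subunits. By the F test of equal changes, 25 of the 39 (64.1%) passed the threshold, against 54.9% of all genes tested, and 16 passed without H1650 PLKO replicate 1. The smallest p were those of NDUFA10 (3.71e-05), SDHC (0.000138), NDUFA5 (0.000314), COX8A (0.000665), SDHD (0.00127) and NDUFA6 (0.00135), all adjusted. In each of these genes the change in H1650 was the largest in size. NDUFA5 had changes of -0.12 in H1993, -0.03 in H1693 and 0.66 in H1650, and COX8A had -0.13, 0.05 and -0.61 in the same order. In 23 subunits the change was below 0 in H1993 and above 0 in H1650, a pattern that was not counted over all genes. Changes in H1993 and H1650 had the same sign in 15 of 39 subunits, against 55.7% of all genes tested. Only 32.4% of all genes had a change below 0 in H1650, so the count is not read as particular to the subunits.

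Between H1993 and H1693, whose arrays had like RNA integrity, 4 of 39 subunits differed in their change (10.3%, against 22.1% of all genes tested). The difference was below 0 for 3 of them (against 9.48% of all genes) and above 0 for 1 (against 12.6%). NDUFA2 differed by -0.41 (H1993 minus H1693, SE 0.09, adjusted p = 0.0103), as it had 12.14 and 12.11 in H1693 KD arrays and 12.09 and 12.01 in H1693 PLKO arrays. SDHA differed by 0.34 (SE 0.08, adjusted p = 0.0167). NDUFC1 differed by -0.29 (adjusted p = 0.047) and NDUFA1 by -0.28 (adjusted p = 0.0363). The count was 1 or 2 when any array of these lines was left out. Across the 39 subunits, the changes in H1993 and H1693 correlated with r = 0.24, and across all genes tested with r = 0.39, a description across genes that share arrays and are not independent. The other 2 pairs of lines gave r = 0.17 across the subunits and 0.19 across all genes (H1993 and H1650), and -0.09 and 0.14 (H1693 and H1650).

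Complex I was also divided into its peripheral arm, which oxidises NADH, and its membrane arm, which pumps protons, a division chosen after the values were seen. The 11 peripheral-arm subunits had median changes of -0.12 in H1993, -0.03 in H1693 and 0.14 in H1650. The 10 membrane-arm subunits had -0.12, 0.00 and 0.06 in the same lines. Both arms thus had the same median in H1993 to 2 decimals. Past the threshold in no line were 10 of the 39 subunits: NDUFA8, NDUFB8, NDUFB9, NDUFS3, NDUFS8 and NDUFV2 of complex I, and COX4I1, COX5A, COX6A1 and COX7A2 of complex IV. Among them, COX4I1 is the regulatory subunit of complex IV to which ATP binds, and NDUFS3 and NDUFS8 belong to the catalytic core of complex I. The share of all genes past the threshold in no line was not counted, so 10 of 39 is not read as few or many.

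The other genes of the pathway were read through separate lists. Their counts are read beside the shares of all genes tested, which were 14.5% lower and 18.9% higher in H1993, 15.9% and 17.1% in H1693, and 16.7% and 36.7% in H1650. In H1993, 5 of 18 ATP synthase subunits fell (27.8%) and 0 rose, with a median of -0.13. ATP5MC1, which encodes the membrane ring subunit c, had changes of -0.72 in H1993 (adjusted p = 0.000126), -0.45 in H1693 (0.00235) and -0.88 in H1650 (1.84e-05). In H1693, 4 of 18 fell and 1 rose (median -0.03), and for H1650 the counts were 3 falls (16.7%) and 7 rises (38.9%), near the shares of all genes, at a median of 0.14. Of the 19 other subunits of complexes I to IV that were tested, 2 fell (10.5%) and 1 rose in H1993, 1 fell and 4 rose (21.1%) in H1693, and 4 fell (21.1%) and 10 rose (52.6%) in H1650. Their median changes were -0.05, 0.08 and 0.16 in the same order. In H1993, 12 of the 19 had a change below 0 (63.2%), against 89.7% of the 39 listed subunits, whose median was -0.12. On the deposited values the fall in H1993 was thus weaker in the unlisted subunits of these complexes. With centred arrays the shares below 0 were alike, at 18 of the 19 unlisted and 36 of the 39 listed subunits. The centred medians were -0.12 and -0.19, with 6 unlisted and 16 listed subunits lower past the threshold. NDUFV3, a small subunit of the peripheral arm, had -0.81 in H1993 (adjusted p = 2.52e-05) and -0.33 in H1693 (0.00569), while NDUFA7 had -0.42 in H1993 (0.0005) and 0.25 in H1693 (0.00974).

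Assembly factors and enzymes of ubiquinone synthesis build the chain but are not part of it. Of 30 assembly factors of complexes II to IV, 11 fell (36.7%, against 14.5% of all genes) and 1 rose in H1993, 8 fell (26.7%, against 15.9%) and 3 rose in H1693, and 7 fell (23.3%, against 16.7%) and 11 rose (36.7%, the share of all genes) in H1650, with medians of -0.15, -0.15 and 0.10. COX10, which makes heme for complex IV, had -0.68 in H1993 (adjusted p = 0.00015), -0.25 in H1693 (0.0329) and -0.44 in H1650 (0.00101). Of 16 complex I assembly factors, 4 fell (25%) and 1 rose in H1993, 5 fell (31.3%) and 1 rose in H1693, and 2 fell (12.5%) and 7 rose (43.8%) in H1650. NDUFAF4 had -0.44 in H1993 (adjusted p = 0.000548) and -0.62 in H1693 (7.84e-05), and 0.50 in H1650 (0.000137). Of 15 genes of electron carriers and ubiquinone synthesis, 7 fell (46.7%) and 1 rose in H1993, 6 fell (40%) and 3 rose in H1693, and 4 fell (26.7%) and 7 rose (46.7%) in H1650. COQ3, a methyltransferase of ubiquinone synthesis, had -0.60 in H1993 (adjusted p = 0.00027), -0.57 in H1693 (0.000391) and 0.53 in H1650 (0.00031).

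Regulators of the chain and the tricarboxylic acid cycle were read in the same way. Of 17 genes for transcription of respiratory genes and mitochondrial DNA, 4 fell (23.5%, against 14.5% of all genes) and 1 rose in H1993, 4 fell (23.5%, against 15.9%) and 0 rose in H1693, and 2 fell and 7 rose (41.2%, against 36.7%) in H1650. TFAM, which packages and transcribes mitochondrial DNA, had -0.51 in H1993 (adjusted p = 0.00731), -0.50 in H1693 (0.00868) and 0.59 in H1650 (0.0019). ESRRA, a nuclear receptor that drives respiratory genes, had 0.37 in H1993 (0.0109) and -0.64 in H1650 (0.000274). Of 12 genes of the tricarboxylic acid cycle, which feeds NADH and succinate to the chain, 1 fell (8.33%) and 0 rose in H1993, 3 fell (25%) and 2 rose in H1693, and 4 fell (33.3%) and 5 rose (41.7%) in H1650. IDH3B, a subunit of isocitrate dehydrogenase, had -0.56 in H1993 (adjusted p = 0.000376) and -0.81 in H1650 (1.8e-05).

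**Figure D5:**
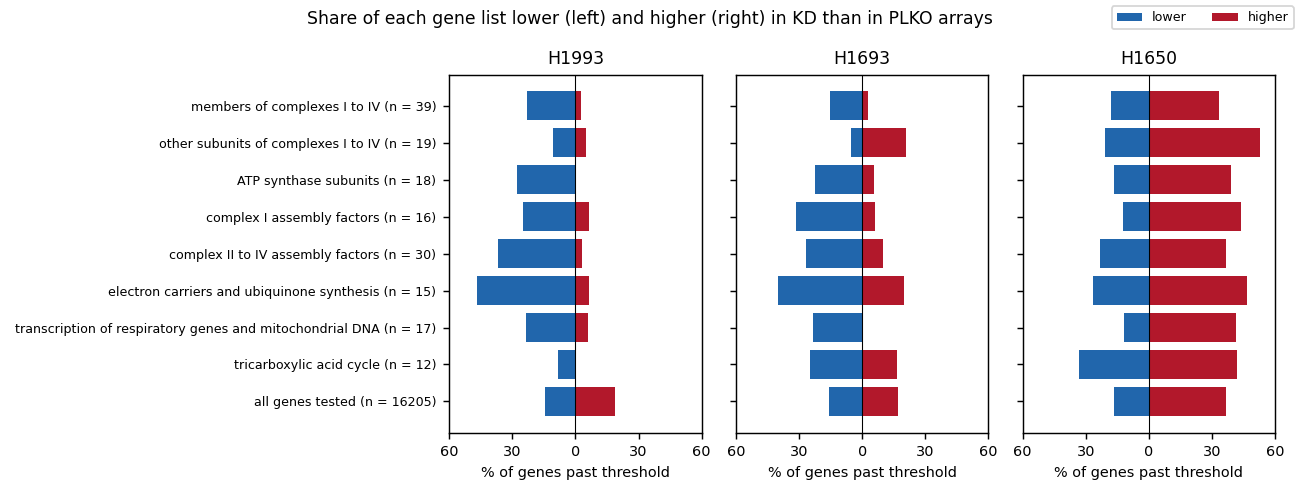
Share of each gene list past the threshold (x axis, percent of genes), lower in KD to the left in blue and higher to the right in red, for the 39 subunits, 7 related lists and all 16205 genes tested in each line. In H1993 the subunits have 23.1% lower and 2.56% higher, beside 14.5% and 18.9% of all genes.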

How the data were processed

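Total RNA (Trizol) from 6 groups of 2 cultures was labelled as biotinylated cRNA and hybridised to Affymetrix PrimeView arrays, per the labels. Per the submitters' processing notes, the authors used Affymetrix Expression Console and its RMA method, which gave the deposited log2 signals. Software versions are not known from the labels. RMA corrects background, brings the arrays to a common distribution and summarises each probe set, so a loss shared by all genes is not visible. The table holds 49395 probe sets on 12 arrays, with array medians over all probe sets of 7.13 to 7.32.

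Gene symbols came from the platform annotation and RefSeq gene IDs (GRCh38.p14). Of them, 44994 had 1 gene symbol, 1832 several and 2569 none. Those with several or none and 102 control probe sets were left out, and 44988 remained, for 18132 genes. For each gene the probe set of highest mean over the arrays was used, and the gene was kept where at least 2 arrays reached a log2 of 5, which left 16205 genes.

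Group means of all 12 arrays were fitted in 1 model with limma 3.58.1 (R 4.3.3, lmFit and eBayes, 6 residual degrees of freedom, prior 3.52). Tests were two-sided at a threshold of 0.05, and p was adjusted by Benjamini-Hochberg over the 16205 genes. The F test asked whether the 3 changes were equal. The pipeline was tested on simulated data. Medians and counts were taken with pandas 2.3.3 (Python 3.11.15). Alternatives were centred arrays, quantile normalization, other filters, the mean of all probe sets, a replicate block, separate lines, array weights and leaving out each array. Arrays were centred on their median over the genes tested.

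Per the labels the replicates are biological, and p-values reflect how far such cultures differ. Replicate arrays shared identical values in at most 0.0992% of probe sets. Precision is limited by the number of arrays, and the subunits' mean signals of 10.2 to 14.6 are in the bright range, where differences can be compressed. Levels of different genes were not compared.

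Members and lists were chosen with earlier results of these data known. All 41 members could be named. Array values were given for up to 4 rises and 4 falls a line, the member with the largest change of each complex, and the 6 smallest F test p. From each related list up to 3 members a line could be named. Other array values were added after they were seen.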

Additional observations from a re-analysis of the deposited data

Results flagged for a closer look

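Several subunits had changes that differed between lines by a test of the difference itself. Many of all genes tested differed too, so the count below is not read as particular to the subunits. By the limma F test over the 3 lines, 25 of the 39 subunits (64.1%) passed the threshold, where 54.9% of all genes tested did, and 16 passed without H1650 PLKO replicate 1. The 6 with the smallest adjusted p were NDUFA10 (3.71e-05), SDHC (0.000138), NDUFA5 (0.000314), COX8A (0.000665), SDHD (0.00127) and NDUFA6 (0.00135). Each of the 6 had its largest change in H1650, the line whose GAPDH gap between 3' and 5' probe sets was 6.82 in KD and 2.68 in PLKO arrays, and the part of RNA integrity in this was not tested. The direction of SDHD in H1650 also turned with the probe set.

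Between H1993 and H1693 alone, 4 subunits (10.3%) differed by limma's contrast, below the 22.1% of all genes tested, and 1 or 2 differed when any array of these lines was left out. The difference in change (H1993 minus H1693) was -0.41 for NDUFA2, -0.29 for NDUFC1, -0.28 for NDUFA1 and 0.34 for SDHA. With 2 arrays a group, no array could be tested as standing apart within its group.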

How the results depend on the processing

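The labels do not say whether same-numbered samples belong together, and the main fit did not pair them. Same-numbered KD and PLKO arrays had deviations that correlated at 0.29 in H1993, -0.18 in H1693 and -0.11 in H1650. A shared effect of the replicate number in H1993 is therefore not excluded. With the replicate block, 2 subunits differed between H1993 and H1693 instead of 4, and COX7B in H1993 had an adjusted p of 0.0632. With centred arrays, 0 subunits were higher and 16 lower in H1993 and 0 were higher in H1693, and the medians were 0.050 for complex I in H1650, -0.21 for complex III and -0.19 for complex IV in H1993, and -0.11 for complex III in H1693. Quantile normalization gave medians of 0.016 for complex I and -0.050 for complex II in H1650. The mean of all probe sets gave 0 rises in H1993 and in H1693, and medians of 0.035 (complex I) and -1.03 (complex II) in H1650, -0.081 (complex III) in H1993, and 0.041 (complex III) and -0.019 (complex IV) in H1693. It also reversed SDHD in H1650 to -1.03. With each line fitted alone, 0 subunits were higher and 3 lower in H1993, 0 were higher in H1693 and 8 in H1650. Array weights gave 2 rises in H1693. The cause of these shifts was not tested. A fit on the H1993 and H1693 arrays only, chosen after seeing the data, gave 8 falls in H1993, 6 in H1693 and 4 subunits that differed.

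Leaving out 1 array at a time gave 0 to 1 rises and 4 to 9 falls in H1993, 0 to 1 rises and 1 to 6 falls in H1693, and 8 to 14 rises and 7 to 9 falls in H1650, with 16 to 25 subunits that differed between lines and 1 to 5 between H1993 and H1693. In a group with 1 array left, that array was assumed to vary like the other groups. Medians ran, for complexes I to IV, from -0.13 to -0.10, -0.13 to -0.05, -0.15 to -0.11 and -0.13 to -0.07 in H1993, from -0.03 to 0.01, -0.12 to -0.07, -0.087 to -0.063 and -0.01 to 0.04 in H1693, and from 0.060 to 0.13, -0.01 to 0.05, 0.03 to 0.08 and 0.14 to 0.19 in H1650. At an unadjusted p under 0.05, 13 subunits passed in H1993 (33.3%, against 41.4% of all genes), 8 in H1693 (20.5%, against 41.4%) and 24 in H1650 (61.5%, against 58.3%). The smallest changes past the threshold, which show what 2 arrays a group could call, were those of UQCRH in H1993 (-0.21), NDUFA1 in H1693 (0.18) and UQCRQ in H1650 (0.16).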
